A study of Mus musculus with 6 samples.

Results

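The kinetochore is the protein assembly that ties a chromosome to the spindle, and 39 genes of the kinetochore, the centromere and the spindle checkpoint are described here in ureteric bud (UB) cells of the mouse embryo. They were chosen by gene symbol from the 17189 genes in the deposited table, with earlier results of these data known. All 39 had a row, all passed the filter on low counts, and all carried a kinetochore or centromere term in the gene annotation deposited with the counts. UB cells, the epithelium that branches into the collecting ducts of the kidney, were sorted by flow cytometry from embryos at E16.5. The 3 control libraries had the genotype Hoxb7Cre-GFP+, Ash2l F/+, and the 3 conditional knockout (cKO) libraries Hoxb7Cre-GFP+, Ash2l F/F, both untreated. Controls therefore shared the Hoxb7-driven Cre-GFP transgene and carried 1 floxed Ash2l allele. ASH2L belongs to the enzyme complexes that place methyl groups on lysine 4 of histone H3.

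A centromere is marked by nucleosomes that hold the histone variant CENP-A. On this chromatin sits a constitutive network of CENP proteins, which recruits the NDC80, MIS12 and KNL1 complexes that grip microtubules. Checkpoint kinases and adaptors hold back anaphase until every kinetochore is attached, and Aurora B with its passenger proteins releases faulty attachments. Most of these genes are transcribed mainly in cycling cells, so their RNA in a tissue follows both the share of dividing cells and the RNA in each. In bulk libraries such as these, fewer dividing cells and less RNA per cell cannot be told apart.

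Library totals lay between 9620235 and 10538314 counts. Ash2l itself had 1933, 1853 and 1624 counts in the controls and 451, 292 and 214 counts in the cKO libraries (log2 fold change -2.43, SE 0.284, edgeR adjusted p = 0.00786). Of the 11738 genes that exceeded 10 counts in all libraries but cKO replicate 3, 12.4% were at 0 in that library, and the same measure gave at most 0.0297% in any other. Cenpo, Ndc80, Bub1 and Ttk were among those genes, so 4 of 39 members (10.3%) were at 0 there, and results are given with and without this library. Summed CPM (counts scaled to library size by TMM) of the 14 ureteric epithelium markers was 10817 to 12116 in controls and 6402 to 7400 in cKO, with no marker at 0. With 6 libraries 13 of the 14 had a negative log2 fold change (median -0.70). Of the 14, 5 were called lower (35.7%, against 3.59% of all genes tested), and 8 without cKO replicate 3 (57.1%, against 14.9%). Summed CPM of nephron markers (12 of 13 in the table) was 15.1 to 17.8 in controls and 43.2 to 56.1 in cKO. Of these, Six2 had no more than 7 counts and Nphs1 no more than 2 in any library. All 4 nephron markers tested with 6 libraries had a positive log2 fold change (median 1.60), and 0 were called. Without cKO replicate 3, 3 of 6 tested were called higher, against 13.7% of all genes tested, and 2 were negative. For stroma, endothelium, immune and erythroid markers the ranges were 6.28 to 16.3, 0.785 to 4.09, 41.2 to 76.5 and 0.491 to 378 in controls, and 2.19 to 15.4, 0 to 5.38, 54.4 to 66.5 and 0 to 32.5 in cKO. Ddx3y, a Y-linked gene, had 392 to 1044 counts in controls and 0 in each cKO library. A difference by sex of the embryos therefore cannot be told apart from one by genotype here. The part of these differences in the results was not tested.

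The question put to the members was whether the machinery of chromosome segregation differed in cKO cells. With 6 libraries 18 of the 39 members fell and 0 rose, while 3.59% of the 13047 genes tested fell and 3.52% rose. No member was higher at an unadjusted p under 0.05 in edgeR with 6 libraries, and DESeq2 and limma-voom also called 0 higher. In limma-voom Cenpt was higher at an unadjusted p of 0.041 (log2 fold change 0.36, adjusted p = 0.114). The fitted log2 fold change was negative for 38 members, and Cenpt was the exception. Its median over members was -1.22 against -0.04 over all genes tested, and 17 of the 18 called members were at least 2-fold lower. Every cKO library lay below every control for 33 of 39 members, against 20.7% of all genes tested. The groups overlapped for Cenpm, Cenpp, Cenpt, Dsn1, Mad1l1 and Sgo2a.

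Without cKO replicate 3, 34 of 39 members fell and 0 rose, against 14.9% and 13.7% of the 13660 genes tested then, and Cenpt alone was higher at an unadjusted p under 0.05. Both remaining cKO libraries lay below every control for 37 members and 26.5% of genes. These 34 included all 18 called with 6 libraries. The median over members was -1.24, close to that of 6 libraries. Members not called in either fit were Cenpm, Cenpn, Cenpq, Cenpt and Mad1l1. The test called 5, 4 or 4 members without control replicate 1, 2 or 3, and 14 or 9 when cKO replicate 1 or 2 was dropped, each lower in cKO. At the same settings 0.631%, 0.771% and 0.434%, and 1.89% and 1.11%, of all genes tested were called lower. With 6 libraries DESeq2 called 21 members lower, against 7.82% of genes, and limma-voom 32, against 13.4%. Pmf1 and Birc5 were called without each library in turn, and the other 16 lost the call without at least 1.

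**Figure D1:**
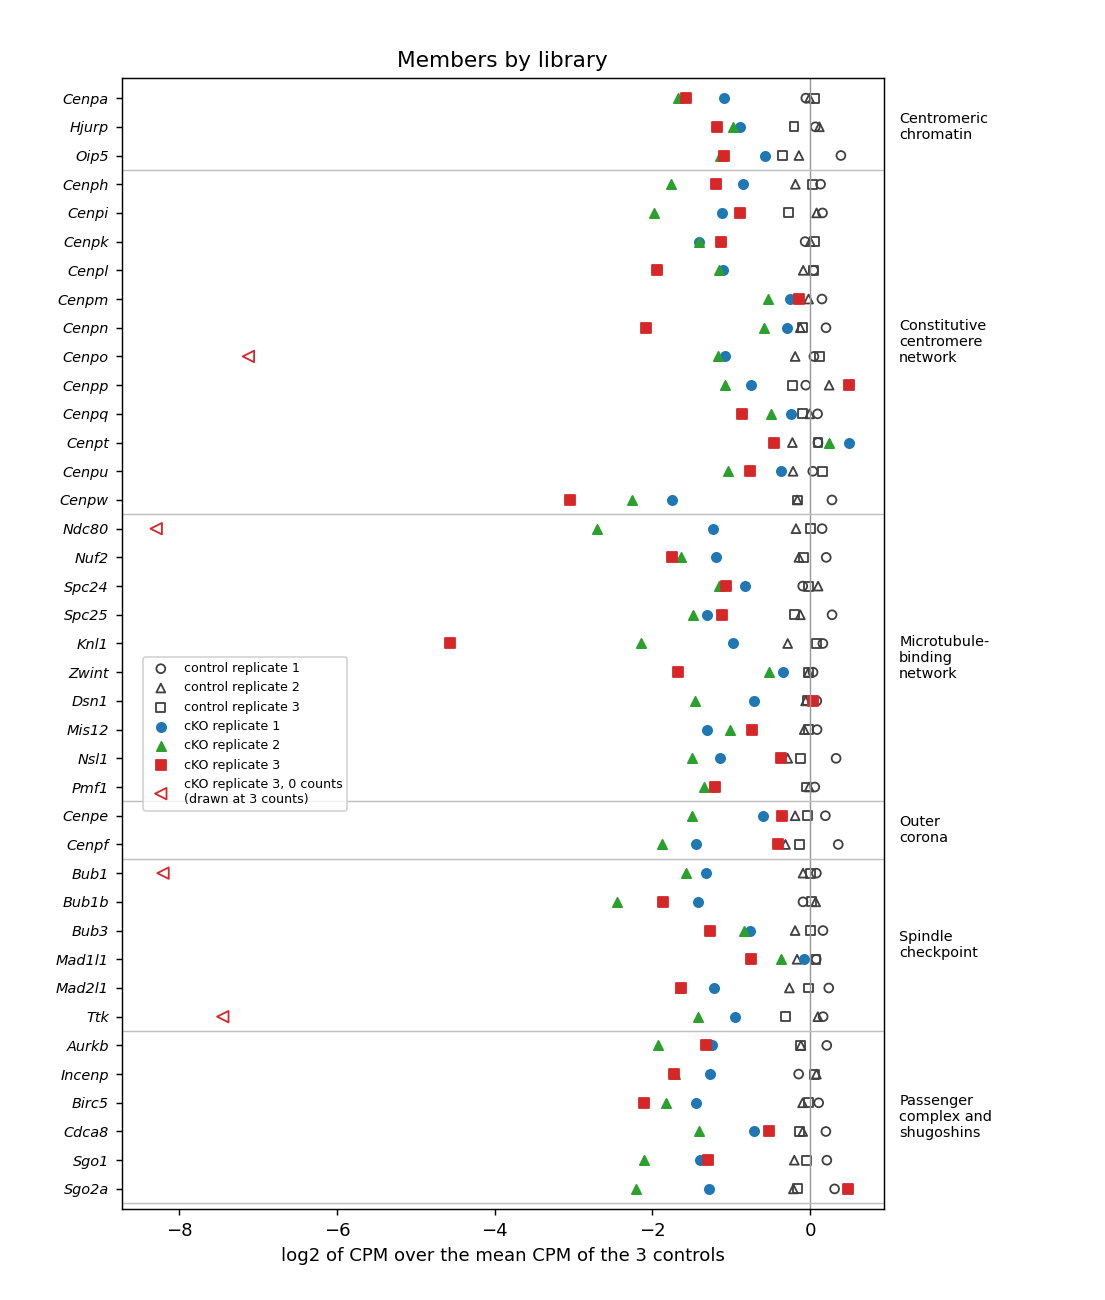
Level of each of the 39 members in each library, as log2 of CPM over the mean CPM of the 3 controls. Open grey symbols are controls and filled coloured symbols are cKO libraries; the 4 members at 0 counts in cKO replicate 3 are drawn at 3 counts as open triangles, and the library is above every control for Cenpp and Sgo2a.

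Libraries also differed within a group, and many members did so in the same direction. The median member in cKO replicates 1, 2 and 3 stood at -1.09, -1.46 and -1.13 on the log2 scale relative to the control mean. In cKO replicate 2, 37 of 39 members were lower than in cKO replicate 1, with a median difference of -0.42, whereas 49.8% of all genes tested were lower. Cenpk, with 31.1 CPM in both, and Mis12 were the exceptions. Among controls, 29 members were highest in replicate 1, against 35.4% of all genes tested. In cKO replicate 3 the members scattered: 14 were above both other cKO libraries, 17 below both and 8 between. Cenpp and Sgo2a exceeded every control in that library.

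Short motifs near the start sites were examined because members moved together. The CHR (cell cycle genes homology region) is the element that the MuvB complexes use to silence genes in quiescence and to activate them in G2 and mitosis. RefSeq promoter windows (GRCm38.p6, 250 bases before to 50 after a start) were at hand for 35 of the 39 members, in 40 windows. The letters TTTGAA or TTCGAA, on either strand, stood in the windows of 18 of these 35 genes (51.4%), against 16.6% of the 10458 tested genes with a window and 21.7% of all 27025 genes in the promoter table. Within 50 bases of the start the shares were 42.9% (15 members) and 4.38% of tested genes. CCAAT or its complement, the box bound by NF-Y, stood in 71.4% of members and 43.6% of tested genes. The E2F letters TTTCCCGC, TTTGGCGC, TTTGCCGC or TTTCGCGC stood in 3 members (8.57%) and 4.61% of tested genes. A CHR match shared 1 base with a CCAAT match in Cdca8 and Cenpw. The 2 windows of Bub3 overlap and share their CHR match. These matches are descriptions of letters and not of bound sites.

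The runs below show the CHR letters in capitals, each in 30 bases on the gene's strand, for all members of the centromeric chromatin list, for 3 spindle checkpoint genes and for 3 further members of other roles.
Cenpa (chr5:30666890-30666919, plus strand): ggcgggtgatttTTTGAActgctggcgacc
Hjurp (chr1:88277543-88277572, minus strand): tgcgtaaatactTTTGAAagaccctattag
Oip5 (chr2:119618456-119618485, minus strand): aagaggcgcgcgcTTCAAAgaaatatggcg
Bub1 (chr2:127831828-127831857, minus strand): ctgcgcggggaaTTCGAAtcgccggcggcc
Bub1b (chr2:118598231-118598260, plus strand): ctgcgtcaagagacgttaaaTTTGAAactt
Ttk (chr9:83834684-83834713, plus strand): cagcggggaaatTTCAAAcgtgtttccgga
Ndc80 (chr17:71526811-71526840, minus strand): gaaactttaaaaTTCAAAccgccttgggtt
Sgo1 (chr17:53689271-53689300, minus strand): gtaacgcagaatTTCGAAtgtggcggcggt
Cenpw (chr10:30200548-30200577, minus strand): tccggcggccaaTTCAAAtcgaccactcgg
In all of these but Cenpw the capitals begin after the start site, at offsets from 8 (Ttk) to 41 (Bub1b), and in Cenpw they begin at -25. Bub1b also has a match at -188 that is not shown. Of the 18 members with a match, 15 had one within 50 bases of the start. Cenpl, Pmf1 and Cenpm, not shown, had theirs only further upstream, at -162, -135 and -83.

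CCAAT letters or their complement lay upstream in 7 of the 9 promoters shown above. Ndc80 had none in its window, and the only match of Sgo1 lay after the start. The 130 bases before the start of Spc25 and of Ttk are given, with CCAAT in capitals, because neither stretch holds an annotated exon (GENCODE M21) and each holds 2 boxes upstream of a CHR match.
Spc25 (chr2:69206214-69206343, minus strand): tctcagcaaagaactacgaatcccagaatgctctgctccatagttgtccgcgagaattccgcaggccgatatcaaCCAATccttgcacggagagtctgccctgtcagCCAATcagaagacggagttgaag
Ttk (chr9:83834559-83834688, plus strand): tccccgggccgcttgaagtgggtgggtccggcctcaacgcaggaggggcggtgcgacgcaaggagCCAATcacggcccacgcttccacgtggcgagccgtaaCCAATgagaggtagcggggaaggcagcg
Boxes began at -55 and -23 in Spc25 and at -65 and -28 in Ttk. The 18 members with a CHR match had a median log2 fold change of -1.32 and the 17 without one -0.74. Of these, 9 and 6 were called lower, against 3.59% of all genes tested. Without cKO replicate 3 the medians were -1.33 and -1.13, with 16 and 14 called lower, against 14.9% of genes. The ranges then overlapped (-1.99 to -0.40 and -1.68 to 0.36). Called members were thus found both with and without the letters.

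**Figure D2:**
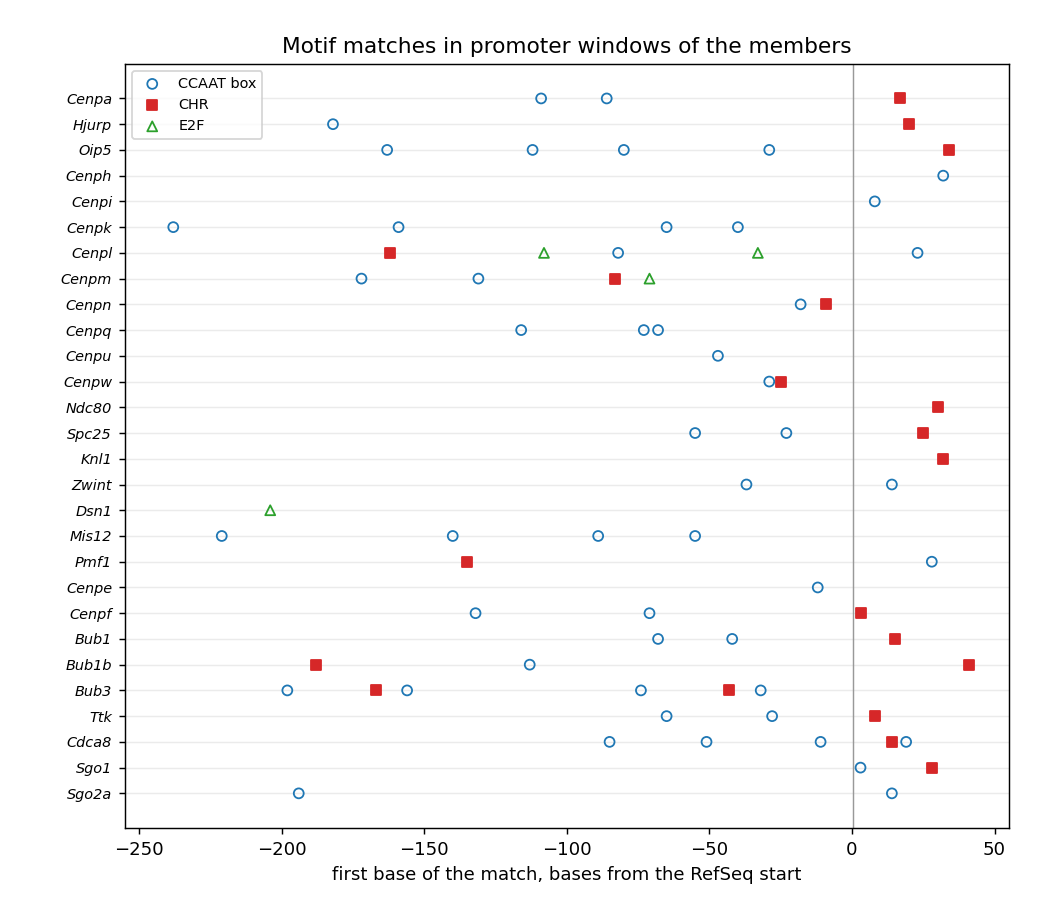
First base of each motif match in the promoter windows of members with at least 1 match, in bases from the RefSeq start; genes with several windows show the matches of all. Filled squares are CHR, open circles CCAAT boxes and open triangles E2F letters; CHR matches of 15 members lie within 50 bases of the start, and most CCAAT boxes lie upstream.

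At the base of the kinetochore, the genes of centromeric chromatin were lower in cKO in every library. Cenpa, the centromeric histone H3 variant, stood at 109, 113 and 118 CPM in controls and at 53.5, 35.5 and 38.2 CPM in cKO replicates 1, 2 and 3. The groups did not overlap, and Cenpa fell by 1.42 on the log2 scale (SE 0.187, edgeR adjusted p = 0.0107). Hjurp, the chaperone that deposits CENP-A, had 155, 161 and 129 CPM in controls against 79.9, 75.4 and 65.3 in cKO. It fell by 1.01 (SE 0.142, edgeR adjusted p = 0.0124). Oip5, a subunit of the MIS18 complex that licenses this deposition, had 73.9, 51.1 and 44.1 CPM against 37.8, 25.6 and 26.4. Its lowest control and its highest cKO library lay close together, and it was not called with 6 libraries (-0.91, SE 0.274, edgeR adjusted p = 0.103). Without cKO replicate 3 all 3 genes fell, against 14.9% of all genes tested, and Oip5 fell by 0.84 (edgeR adjusted p = 0.0188). Of the exon bases of Oip5, 15.9% overlap Nusap1 on the other strand, so its reads are less certain.

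The constitutive centromere network, 12 CENP subunits that stay on the centromere through the cell cycle, changed unevenly. With 6 libraries 4 of the 12 fell (Cenph, Cenpk, Cenpl and Cenpw), against 3.59% of all genes tested. The list ranged from -2.25 for Cenpw to 0.14 for Cenpt, with a median of -1.01. Cenpk had 78.7, 82.4 and 85.5 CPM in controls and 31.1, 31.1 and 37.6 in cKO. It fell by 1.31 (SE 0.156, edgeR adjusted p = 0.00786), with little spread in either group. Cenpw had 62.8, 46.3 and 46.3 CPM against 15.4, 10.9 and 6.29, the largest fall among the called members (-2.25, SE 0.371, edgeR adjusted p = 0.0195).

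CENP-T and CENP-W bind each other as histone-fold partners, yet their transcripts stood apart. Cenpt had 64.7, 51.7 and 64.7 CPM in controls and 84.7, 71.3 and 43.9 in cKO, so cKO replicates 1 and 2 were above every control and replicate 3 below. It was not called with 6 libraries (0.14, SE 0.260, edgeR adjusted p = 0.804) or without cKO replicate 3 (0.36, SE 0.156, adjusted p = 0.102). The log2 ratio of Cenpw to Cenpt, in FPKM and so per length, was 0.61 ± 0.23 in controls and -1.82 ± 0.18 in cKO (SD, n = 3 each). This pair was chosen after its values were seen, and the difference of -2.43 is a description with no test. CENP-S and CENP-X join the same histone-fold assembly: Cenpx rose from 61.9 ± 1.88 to 101.9 ± 9.54 CPM (SD, n = 3; log2 fold change 0.72, SE 0.129, edgeR adjusted p = 0.0249). That rise was called in 1 of 6 tests that each left out a library, the one without cKO replicate 3, and its adjusted p reached 0.131 without control replicate 3. Cenps was not called (-0.10, SE 0.289).

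The other subunits of this network gave mixed values. Cenpo, of the CENP-O/P/Q/U group, gave 439, 384 and 464 counts in the control libraries, 193 and 182 in cKO replicates 1 and 2, and 0 in replicate 3. For counting error only, a count of 0 there allows up to 3 counts, or 0.299 CPM. That bound does not cover the excess of genes at 0 in this library. Cenpo was not called with 6 libraries (-1.71, SE 1.27, edgeR adjusted p = 0.496) and fell by 1.13 in the 5 other libraries (SE 0.195, adjusted p = 0.00077). Cenpp behaved in the opposite way in that library, with 21.7, 26.6 and 19.3 CPM in controls and 13.4, 10.7 and 31.8 in cKO. Without replicate 3 Cenpp fell by 0.92 (adjusted p = 0.0176), and Cenpu (-0.68) and Cenpi (-1.49) fell too. Cenpl, whose protein pairs with CENP-N, fell by 1.36 with 6 libraries (adjusted p = 0.0356), and Cenph by 1.22 (adjusted p = 0.0464). Cenpm (-0.30), Cenpn (-0.80) and Cenpq (-0.51) were not called with 6 libraries. On the other strand Cenpo overlaps Adcy3 over 24.3% of its exon bases, Cenpp overlaps Ippk over 27.5% and Cenpu overlaps Primpol over 36.5%.

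**Figure D3:**
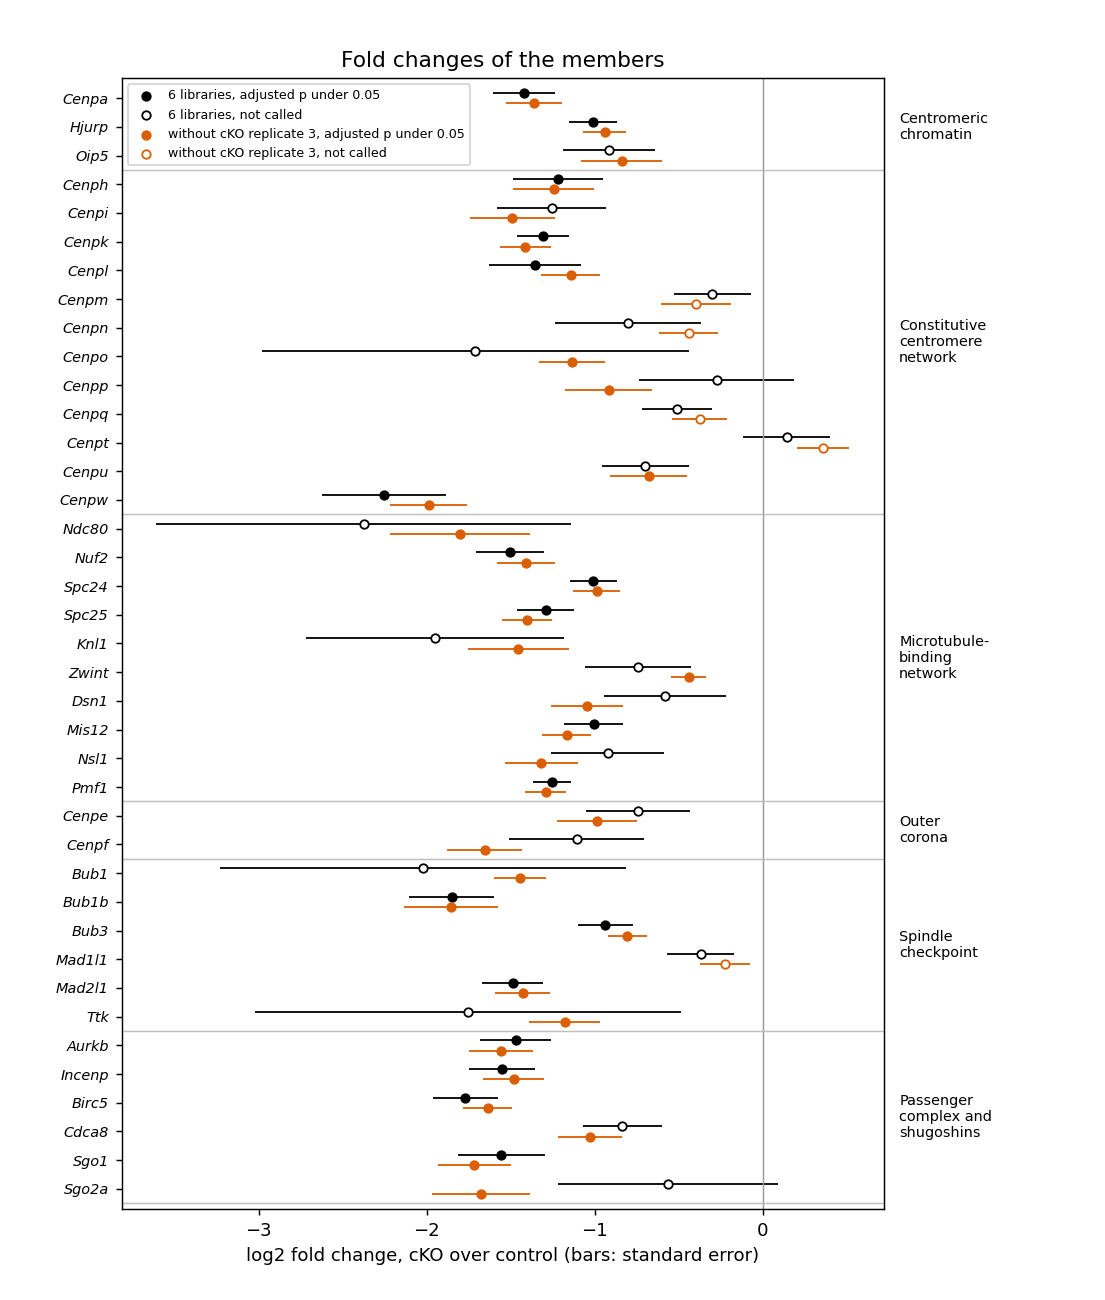
Log2 fold change of each member, cKO over control, with its standard error, from 6 libraries (black) and without cKO replicate 3 (orange). Filled points are called at an adjusted p under 0.05: 18 of 39 with 6 libraries and 34 of 39 without cKO replicate 3; Cenpt is the only member with positive values.

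The microtubule-binding network, made of the NDC80, MIS12 and KNL1 complexes, had a negative fold change for each of its 10 genes. With 6 libraries 5 of them fell (Nuf2, Spc24, Spc25, Mis12 and Pmf1), against 3.59% of all genes tested. Without cKO replicate 3 all 10 fell, from -1.8 for Ndc80 to -0.44 for Zwint, against 14.9% of genes. Pmf1, a subunit of the MIS12 complex, had 147, 140 and 136 CPM in controls and 60.7, 55.4 and 61.5 in cKO. Its groups were tight and far apart, and it fell by 1.25 (SE 0.113, edgeR adjusted p = 0.00567), the smallest p among the 39. Spc25, of the NDC80 complex, had 283, 214 and 202 CPM against 94.4, 83.2 and 108, and fell by 1.29 (SE 0.170, edgeR adjusted p = 0.0107). Its partners Spc24 and Nuf2 fell by 1.01 (SE 0.139) and 1.51 (SE 0.202), and Mis12 by 1.00 (SE 0.176).

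Ndc80 encodes the subunit that touches the microtubule. Controls gave 1061, 870 and 963 counts of it, and cKO replicates 1, 2 and 3 gave 389, 142 and 0. All cKO libraries were below all controls, but they were far from each other, and Ndc80 was not called (-2.38, SE 1.23, edgeR adjusted p = 0.316). It did fall once cKO replicate 3 was dropped (SE 0.417, adjusted p = 0.0244), by the amount given above. Knl1, the scaffold that recruits the checkpoint proteins, was measured at 368 to 486 counts in controls, 212 and 95 in cKO replicates 1 and 2, and 18 in replicate 3 (-1.95, SE 0.768, edgeR adjusted p = 0.191). Dsn1, of the MIS12 complex, had 57.8, 52.4 and 53.3 CPM in controls and 33.4, 19.8 and 55.9 in cKO. Its value in cKO replicate 3 lay among the controls, and it was not called (-0.58, SE 0.363, edgeR adjusted p = 0.404), but fell by 1.04 without that library (adjusted p = 0.00273). Nsl1 (-0.92) and Zwint (-0.74), the latter a KNL1 partner, were not called with 6 libraries either.

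Of the outer corona, neither gene was called by edgeR with 6 libraries, although both had an unadjusted p under 0.05. DESeq2 also called 0 of them, and limma-voom with library weights called both. Cenpe, a kinesin that moves chromosomes to the spindle equator, had 71.4, 54.7 and 61.1 CPM in controls and 41.3, 22 and 48.6 in cKO (-0.74, SE 0.307, edgeR adjusted p = 0.21). Cenpf, a large coiled-coil protein of the same layer, had 95.8, 60.2 and 68.3 against 27.5, 20.3 and 56.3 (-1.11, SE 0.403, edgeR adjusted p = 0.162). In both, cKO replicate 3 was the highest cKO library and stood just under the lowest control. Without it Cenpe fell by 0.99 (adjusted p = 0.00793), and Cenpf fell as well (-1.65, adjusted p = 0.000127).

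Among the 6 spindle checkpoint genes, Mad2l1, Bub1b and Bub3 fell with 6 libraries, against 3.59% of all genes tested. Mad2l1, which holds the anaphase activator CDC20 in check, had 245, 173 and 205 CPM in controls and 88.8, 66.3 and 66.7 in cKO, and fell by 1.49 (SE 0.184, edgeR adjusted p = 0.00863). Bub1b, encoding the checkpoint protein BUBR1, had 183, 204 and 197 against 72.7, 35.6 and 53.3. It fell by 1.85 (SE 0.253, edgeR adjusted p = 0.0115), and its highest cKO library was far under its lowest control. Bub3, the adaptor of both BUB kinases and the most abundant member per length (181 FPKM in controls), fell by 0.94 (SE 0.164, adjusted p = 0.0236). The kinase genes Bub1 and Ttk were at 0 in cKO replicate 3. Control libraries held 950, 872 and 905 counts of Bub1, cKO replicates 1 and 2 held 347 and 293, and for Ttk they held 596, 587 and 431 against 263 and 192. With 6 libraries neither was called (Bub1 -2.02, SE 1.21, edgeR adjusted p = 0.385; Ttk -1.75, SE 1.27, adjusted p = 0.48). Without cKO replicate 3 Bub1 fell by 1.45 (SE 0.155, adjusted p = 2.03e-05) and Ttk by 1.18 (SE 0.212, adjusted p = 0.00107). Mad1l1, the anchor of MAD2 at the kinetochore, was not called in either fit (-0.37, edgeR adjusted p = 0.335, and -0.22, adjusted p = 0.294). It had the lowest deposited FPKM of the members (2.12 in controls), yet 77.7 CPM, above the 74.8 CPM of Cenpf at 6.48 FPKM. That low FPKM therefore rests on the length used for Mad1l1, which was not checked.

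Of the 6 genes of the chromosomal passenger complex and the shugoshins, 4 fell with 6 libraries, and all 6 fell without cKO replicate 3. Among all genes tested, 3.59% and 14.9% fell at these settings. Birc5, encoding survivin, had 150, 130 and 137 CPM in controls and 51.0, 39.1 and 32.3 in cKO. It fell by 1.77 (SE 0.192, edgeR adjusted p = 0.00654) with groups well separated. Incenp, the scaffold that activates Aurora B, had 68.7, 80.3 and 78.9 against 31.6, 23.2 and 22.9, and fell by 1.55 (SE 0.196, edgeR adjusted p = 0.00913). Aurkb, encoding the kinase, fell by 1.47 (SE 0.210), and Sgo1, the protector of centromeric cohesion, by 1.55 (SE 0.261). Cdca8, encoding borealin, was not called (-0.84, SE 0.235, edgeR adjusted p = 0.0865). Sgo2a, the second shugoshin, had 41.8, 29.1 and 30.2 CPM in controls and 13.9, 7.31 and 47.2 in cKO. Replicate 3 of the cKO was above every control and the others far below, and the gene was not called (-0.56, SE 0.653, edgeR adjusted p = 0.685). Without that library Sgo2a fell by 1.68 (SE 0.294, adjusted p = 0.000882).

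Binding partners were compared within each library as log2 ratios of FPKM, which do not depend on library scaling. The size of a ratio depends on the gene lengths in the deposited FPKM, but its difference between groups does not. For Mad1l1 that length was not checked. For Mad2l1 over Mad1l1 the ratio was 6.06, 5.80 and 5.81 in controls and 4.75, 4.62 and 5.01 in cKO. The groups did not overlap, and the difference was -1.10 (exact permutation test, two-sided p = 0.1, the smallest that 3 against 3 allows, 0.4 adjusted over 4 pairs). For Aurkb over Incenp the ratio was 1.92 ± 0.31 in controls and 1.99 ± 0.32 in cKO (SD, n = 3), a difference of 0.07 that was smaller than the spread (exact permutation p = 0.7). Ratios of Bub1 to Bub3 and of Ndc80 to Mis12 could not be formed in cKO replicate 3. Over the other 5 libraries the first was -3.26, -3.08 and -3.18 in controls and -3.74 and -3.91 in cKO (difference -0.65, exact permutation p = 0.2, the smallest that 2 against 3 allows). Ndc80 over Mis12 was 0.56, 0.39 and 0.52 in controls, but 0.57 and -1.19 in the 2 cKO libraries (exact permutation p = 0.8), so those cKO libraries differed from each other by more than the groups did.

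Genes of the same machinery outside the 39 were counted from a list of 26, of which 25 were tested. With 6 libraries 5 fell and 1, Cenpx, rose, and without cKO replicate 3, 15 fell and Cenpx rose. The falls were 20% and 60% of the 25, against 3.59% and 14.9% of all genes tested. Cdc20, the anaphase activator that the checkpoint restrains, fell by 1.87 (SE 0.258, edgeR adjusted p = 0.0118). Knstrn, an astrin partner at the kinetochore, fell by 1.77 (SE 0.285, adjusted p = 0.0185), and Plk1, the Polo kinase, by 2.21 (SE 0.380, adjusted p = 0.022). Each lost the call without at least 1 library, Cdc20 and Plk1 with an adjusted p up to 0.0656 and 0.0984 (both without control replicate 1) and Knstrn up to 0.0906 (without control replicate 3). Cenpc1, which links CENP-A nucleosomes to the outer kinetochore, had 46.4 ± 10.6 CPM in controls and 48.9 ± 5.68 in cKO (SD, n = 3) and was not called. Of 15 cohesin and separase genes 1 fell with 6 libraries (6.67%, against 3.59% of all genes tested), and their median was -0.32. It was the sororin gene Cdca5 (-1.52, SE 0.248, edgeR adjusted p = 0.0193), whose adjusted p reached 0.0984 without control replicate 3. Esco2 (-1.24, adjusted p = 0.0549) and Esco1 (0.54, adjusted p = 0.163), acetyltransferases of cohesin, were not called. Without cKO replicate 3, 5 of the 15 fell (33.3%), against 14.9% of all genes tested.

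For comparison, 9 of 28 replication licensing and synthesis genes fell with 6 libraries and 23 without cKO replicate 3, with medians of -0.88 and -0.89. These were 32.1% and 82.1% of the list, against 3.59% and 14.9% of all genes tested. Mcm2 (-1.07, SE 0.117, edgeR adjusted p = 0.00654), Mcm3 (-1.15) and Cdc7 (-0.89) had the smallest p. Mcm2 was called without each library in turn, whereas Mcm3 lost the call without control replicate 3 (0.0582) and Cdc7 without control replicate 2 (0.0709), among others. Of the 22 licensing genes with a promoter window, E2F letters stood in 11 (50%), CHR letters in 6 (27.3%) and CCAAT or its complement in 15 (68.2%), the last close to the share of members. Mki67, a proliferation marker, fell by 1.52 (SE 0.196, adjusted p = 0.00971; up to 0.0729 without control replicate 2). No test of a difference between these lists was made. Across the 39 members, the level in controls (FPKM) and the log2 fold change had a Spearman rho of -0.31 with 6 libraries and -0.17 without cKO replicate 3, a description over genes that share libraries.

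**Figure D4:**
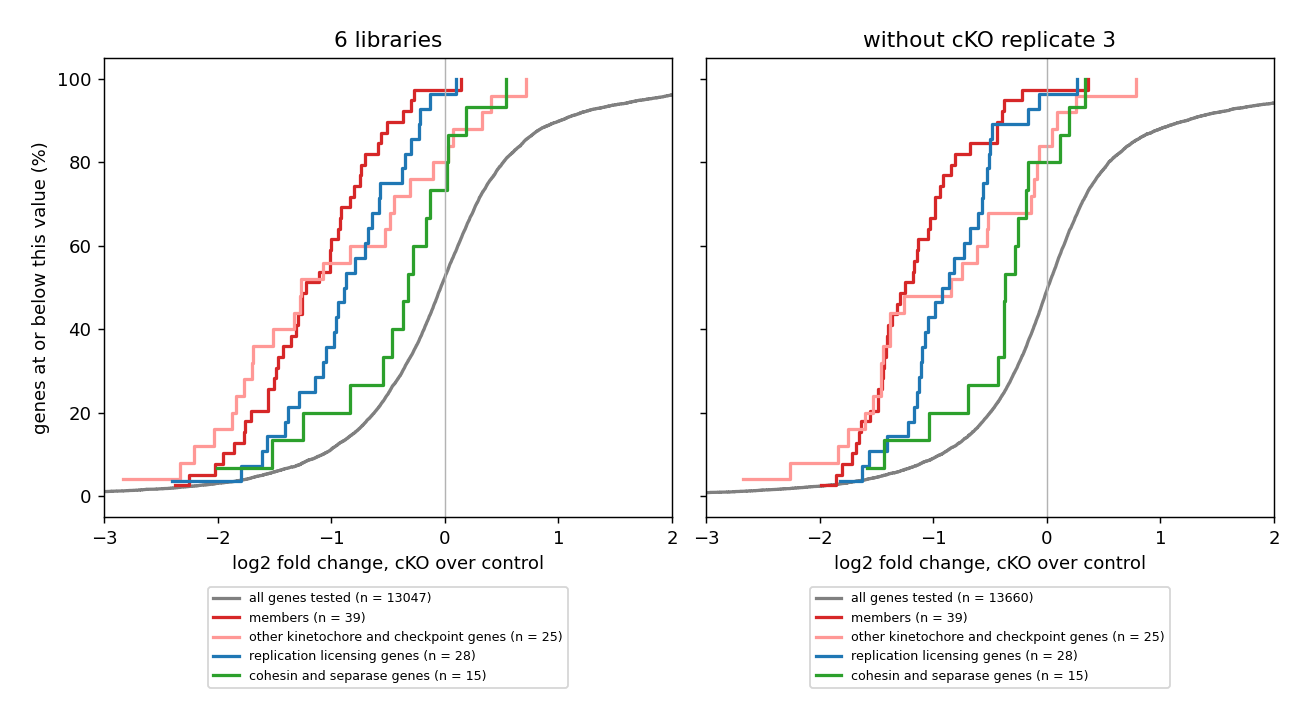
Cumulative distributions of log2 fold change (x axis, cKO over control) for all genes tested, the 39 members and 3 other lists; the y axis is the percentage of genes at or below a value. The members have medians of -1.22 with 6 libraries (left) and -1.24 without cKO replicate 3 (right), while all genes tested centre near 0.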

How the data were processed

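Raw read counts per gene and FPKM values were deposited by the authors in 2 tables with 1 column per library. The submitters' processing notes list HISAT2, HTSeq, Cufflinks, DESeq and the GRCm39 build, with no version. The library kit was a stranded one, per the labels' protocols. Whether the counting used strand is not given here. The deposited FPKM values equal the counts divided by a length per gene and a factor per library (largest relative deviation 2.54e-07).

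Counts were tested with edgeR 4.0.16 in R 4.3.3 over all genes (filterByExpr, TMM, robust quasi-likelihood F-test, group as the only term). A gene was called at a Benjamini-Hochberg adjusted p under 0.05 over all genes tested. SE is the fold change divided by the square root of F. Alternatives were DESeq2 1.42.0, limma 3.58.1 (voom with library weights), 2 other count filters, the replicate number as a block, and leaving out each library. Only the edgeR fit, with 6 libraries and without cKO replicate 3, was tested on simulated counts. The excess of genes at 0 in that library was not modelled there. The titles call the libraries biological replicates but do not say whether each is 1 embryo or a pool. Counts of 0 allow up to 3 counts, for counting error only. Members and lists were chosen with earlier results of these data known. Within each role list the 2 members with the smallest p and the 1 with the largest, and any member at 0 in a library, are given in full, and 3 genes per other list. Overlapping genes are from GENCODE M21 and promoters from RefSeq (GRCm38.p6). Sgo2b was not analysed here.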

Additional observations from a re-analysis of the deposited data

How the results depend on the processing

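No alternative called a member higher in cKO, and 37 to 39 of the 39 members had a negative fold change under each of them. Against 18 members called lower, DESeq2 called 21, both other count filters 18, and limma-voom with library weights 32. Leaving out 1 library gave 4 to 34. The median over members lay between -1.26 and -1.01 without 1 library, and the -1.01 came without cKO replicate 2. Over all genes 928 were called, against 2049 with DESeq2, 3337 with limma-voom and 121 to 3897 without 1 library; the cause was not tested. With the replicate number as a block, edgeR called 0 members and 23 of the 13047 genes tested. Deviations of same-numbered libraries from their group means had r = -0.022, 0.025 and -0.0015 across genes. Deviations from a mean of 3 libraries are tied to each other, so these values cannot show whether same-numbered libraries shared a batch. The fit with the replicate number as a block moved the median of all genes to -0.11. Fold changes of single members reversed in 2 cases: Cenpt fitted at -0.069 without cKO replicate 1 (up to 0.36 without replicate 3) and Cenpp at 0.0025 without cKO replicate 2 (down to -0.92 without replicate 3). The Aurkb/Incenp difference of 0.07 became -0.022, -0.011 and -0.094 without control replicate 2, control replicate 3 and cKO replicate 3, within -0.094 to 0.25 over single libraries left out, and Ndc80/Mis12 ranged from -1.68 to 0.078, the latter without cKO replicate 2. With counts plus 0.5, which admits the zeros, Bub1/Bub3 differed by -3.61 and Ndc80/Mis12 by -3.91. Zeros in cKO replicate 3 limit what that library can show for Cenpo, Ndc80, Bub1 and Ttk. Its total of 9810855 counts lay within the range of the other libraries.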
